A study of Mus musculus with 4 samples.

Results

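Mt2, Prdx1, Txnrd1, Blvrb and Gclm are 5 antioxidant and stress genes, out of 13410 genes that the array names. Mt2 encodes a metallothionein, Prdx1 a peroxiredoxin, Txnrd1 the cytosolic thioredoxin reductase, Blvrb biliverdin reductase B, and Gclm the modifier subunit of glutamate-cysteine ligase. They were chosen by their measured log ratios, as antioxidant genes that lie on both sides of 0, so their values are given as a description with no test. Each is measured by 1 spot. The data are 4 two-colour arrays of lung RNA from 4 bleomycin-treated A/J mice, numbered 1 to 4, each set against 1 common pool of lung RNA from control A/J mice. A/J is an inbred laboratory strain, and bleomycin is a DNA-damaging drug used to injure the lung. RNA was amplified on both sides of each comparison. For dose, route, time, age, sex and the size of the pool, the sources used here give nothing.

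Thioredoxin and glutathione are the main thiol systems that keep a cell's proteins reduced. Thioredoxin reductase recharges thioredoxin with electrons from NADPH, and thioredoxin in turn recharges the peroxiredoxins, which break down hydrogen peroxide. Glutamate-cysteine ligase, made of the catalytic subunit Gclc and the modifier subunit Gclm, makes the first bond of glutathione. Metallothioneins are small cysteine-rich proteins that bind zinc and copper. Biliverdin reductases act on a product of haem breakdown, and Blvrb also reduces flavins. The transcription factor Nrf2, gene Nfe2l2, drives many of these genes through a sequence called the antioxidant response element, whereas metallothionein genes carry metal response elements bound by Mtf1.

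The 5 genes are protein coding and lie on 5 chromosomes in GRCm38.p6: Mt2 on chromosome 8 (94172618 to 94173567), Prdx1 on 4 (116685599 to 116700000), Txnrd1 on 10 (82833951 to 82897724), Blvrb on 7 (27447978 to 27465981) and Gclm on 3 (122245487 to 122267215). Where in a gene its spot lies is not known here. All 5 were matched to RefSeq promoter windows of build GRCm38.p6, which reach from 250 bases before to 50 bases after a listed start site. The sequences before the start sites are shown because these 4 genes hold the letters TGACNNNGC, the core of the antioxidant response element, in such a window. Capitals mark that core and the metal response element core, TGCACNC or TGCGCNC, on either strand. Only the part of each window before the start is printed. These stretches lie at chr8:94172368-94172617 for Mt2, chr4:116685349-116685598 for Prdx1 and chr10:82858956-82859205 for the second of 3 listed Txnrd1 starts. The stretch of Gclm lies at chr3:122245307-122245486 and is printed only up to the first base of the gene's listed span. All are on the + strand and are written 5′ to 3′.
Mt2: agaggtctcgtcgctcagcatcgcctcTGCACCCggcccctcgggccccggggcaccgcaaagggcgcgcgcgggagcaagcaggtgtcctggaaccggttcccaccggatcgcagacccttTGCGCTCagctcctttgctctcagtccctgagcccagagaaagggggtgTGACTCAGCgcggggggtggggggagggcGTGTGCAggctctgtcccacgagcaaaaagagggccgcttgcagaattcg
Prdx1: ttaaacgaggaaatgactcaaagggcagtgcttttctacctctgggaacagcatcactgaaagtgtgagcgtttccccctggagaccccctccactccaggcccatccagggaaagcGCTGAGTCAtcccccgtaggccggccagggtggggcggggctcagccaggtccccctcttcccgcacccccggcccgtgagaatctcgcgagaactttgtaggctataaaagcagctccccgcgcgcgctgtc
Txnrd1, second start: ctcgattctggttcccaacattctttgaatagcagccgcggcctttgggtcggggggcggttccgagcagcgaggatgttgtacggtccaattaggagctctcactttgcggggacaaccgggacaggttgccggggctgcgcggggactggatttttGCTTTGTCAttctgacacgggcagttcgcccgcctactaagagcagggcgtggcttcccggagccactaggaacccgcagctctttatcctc
Gclm: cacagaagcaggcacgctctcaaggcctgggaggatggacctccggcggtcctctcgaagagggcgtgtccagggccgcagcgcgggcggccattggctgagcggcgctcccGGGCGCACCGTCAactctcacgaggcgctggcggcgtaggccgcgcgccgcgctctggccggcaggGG

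Read on the strand that holds it, the core was TGACTCAGC in both Mt2 and Prdx1, on opposite strands. These 9 letters also contain the AP-1 site TGANTCA, so that both motifs overlap there. The core was TGACAAAGC in Txnrd1 and TGACGGTGC in Gclm. Over all 32851 promoter windows of the same length, 12.39% held a TGACNNNGC core on either strand, and 0.454% held TGACTCAGC. Of the genes with a window, 13.99% had the core in at least 1 of them. The Mt2 window held 4 metal response element cores and the Gclm window 3, against 25.7% of all windows with at least 1 and 1.97% with 3 or more. G and C made up 67.7% of the letters in the Mt2 window and 79.7% in the Gclm window. The share among windows of like G and C content was not computed. The Prdx1 window, the 3 Txnrd1 windows and the 2 Blvrb windows held no metal core, and the Blvrb windows no antioxidant core. Of the metal cores, 1 of Mt2 and 2 of Gclm lie wholly or partly past the bases printed. The heat shock element GAANNTTC was in 7.86% of all windows and in none of these 8, and the AP-1 site was in 7.81%. Such matches describe the letters in this window and not binding.

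A value was the logarithm of the ratio between a treated mouse and the pool, read as log2, and each array was centred on its median. Neither labels nor values settle which RNA is on top of the ratio, so genes are placed above or below 0, and all signs would turn together if the pool were on top. Between 9427 and 12136 of 17280 spots had a value per array. The 4 arrays correlated positively over the 6911 spots with a value on each, with Pearson's r from 0.456 (mice 2 and 3) to 0.866 (mice 3 and 4) and 0.748 for mice 1 and 2. The arrays thus run the same way, and the highest correlations were within these last pairs of mice. A ratio gives no level, so the lung label could not be checked by how much of a lung marker is present. Fewer cells of a type and less RNA per cell cannot be told apart in whole lung.

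Mt2, Prdx1, Txnrd1 and Blvrb lay below 0 and Gclm above 0 on each array that measured them. Among the 8384 genes with at least 3 values, 22.3% lay below 0 and 24.3% above 0 on every array with a value. As the sides of 0 chose these genes, nothing is read from their count. In order of the mean they ran from Mt2 at -1.81 through Prdx1 at -1.12, Txnrd1 at -0.59 and Blvrb at -0.36 to Gclm at 0.59.

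**Figure D1:**
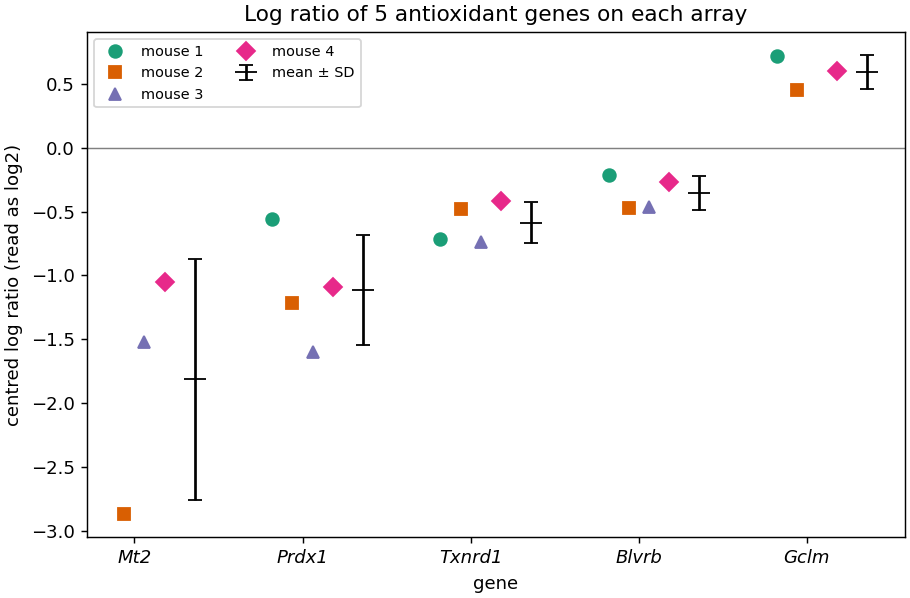
Centred log ratio (read as log2) of Mt2, Prdx1, Txnrd1, Blvrb and Gclm on each of the 4 arrays, with symbols for mice and black bars for the mean ± SD over the arrays with a value (3 for Mt2 and Gclm, 4 for the others). The first 4 genes lie below the line at 0 on each array and Gclm above it; Mt2 spreads most, from -2.87 to -1.05.

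Mt2 had the lowest mean of the 5 and the widest spread. It had no value in mouse 1, and its log ratios were -2.87, -1.52 and -1.05 in mice 2, 3 and 4. Its mean was -1.81 ± 0.94 (SD, n = 3), the 16th lowest of the 8384 genes, and 99% of genes had an SD no larger. With base 2 that mean is a 3.51-fold difference. Mouse 2 was far lower than mice 3 and 4, and without it the mean was -1.28.

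Prdx1, which encodes an abundant cytosolic peroxiredoxin, had log ratios of -0.56, -1.22, -1.60 and -1.09 in mice 1 to 4. Mouse 1 was nearest 0 and mouse 3 farthest. The mean was -1.12 ± 0.43 (SD, n = 4), the 59th lowest, a 2.17-fold difference with base 2. The order of Mt2 and Prdx1 rested on mouse 2: the difference Prdx1 minus Mt2 was 1.65 there and slightly negative in the other 2 mice with both values, down to -0.08.

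Txnrd1 had a narrow range. Its log ratios in mice 1 to 4 were -0.71, -0.48, -0.74 and -0.42, with a mean of -0.59 ± 0.16 (SD, n = 4). Mice 1 and 3 were low and mice 2 and 4 nearer 0, so Txnrd1 did not follow the order of mice seen for Prdx1. Prdx1 lay below Txnrd1 in 3 of 4 mice and above it by 0.15 in mouse 1.

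Blvrb was the member nearest 0. It had -0.22, -0.47, -0.47 and -0.27 in mice 1 to 4, and a mean of -0.36 ± 0.13 (SD, n = 4). Mice 2 and 3 were alike and lower than mice 1 and 4. It lay above Txnrd1 in 4 of 4 mice, but by as little as 0.01 in mouse 2, so these neighbours in the order overlapped.

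Gclm, without a value in mouse 3, was the only one of the 5 above 0, with 0.72, 0.45 and 0.60 in mice 1, 2 and 4. Its mean of 0.59 ± 0.13 (SD, n = 3) was the 433rd highest. Its distance from 0 was close to that of Txnrd1, on the other side. The gap between Gclm and Blvrb was the steadiest between neighbours, from 0.88 to 0.93 in the 3 mice with both (mean 0.91 ± 0.03, SD, n = 3). In these mice both were highest in mouse 1 and lowest in mouse 2.

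**Figure D2:**
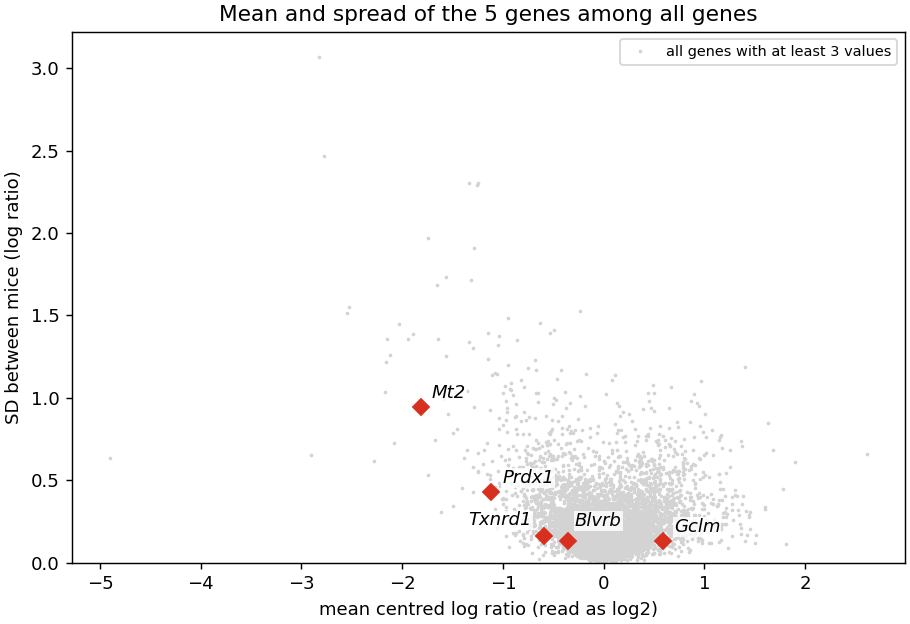
Mean centred log ratio (read as log2, x axis) against its SD between mice (y axis) for the 8384 genes with at least 3 values (grey) and the 5 genes described (red). Mt2 stands out by mean and spread, while Txnrd1, Blvrb and Gclm have SDs of 0.16, 0.13 and 0.13.

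By the smallest root mean square difference over the arrays a member was measured on, each member was set against all genes with values on those arrays. Over 3 arrays, Mt2 was nearest to S100a4, Reg3g and Ccng1 among 6407 genes, at differences of 0.41, 0.55 and 0.63. Over 4 arrays and 6056 genes, Prdx1 was nearest to Hk1 (0.16), 2300002M23Rik (0.20) and Flacc1 (0.22). Txnrd1 was nearest to Ndufs8 (0.08), Msantd3 (0.08) and Apobr (0.08), and Blvrb to Phgdh, Ganc and Cnih2 at 0.04, 0.04 and 0.05. Gclm was nearest to Svep1, Fkbp1a and Snrnp40, each at 0.04 over 3 arrays and 7019 genes. No gene came as close to Mt2 or Prdx1 as these did to the members nearer 0. Few genes have means as low as those of Mt2 and Prdx1, so nothing is read from that.

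To place the 5 genes in their pathways, 8 lists of redox genes were used, which hold 164 other genes. Of these, 137 were named on the array and 95 had at least 3 values. By limma, with a Benjamini-Hochberg adjusted p of at most 0.05 over all 8384 genes, 12 of the 95 passed above 0 and 6 below. Over all genes, 7.69% passed above 0 and 4.81% below, so that the lists' 12 and 6 stand beside 645 and 403. At an unadjusted p under 0.05, 23 of the 95 lay above 0 and 16 below, against 18% and 13.8% of all genes tested; the unadjusted counts given for single lists are to be read against these shares. The median log ratio of the 95 was 0.01, against 0.00 over all genes. These calls depend on the setting: of the 18, 6 passed with the 2 pairs of alike mice as a random block, 2 with limma's trend and robust options, and 4 to 7 when 1 mouse was left out. Alas1 and Nox4 passed in each of these fits.

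**Figure D3:**
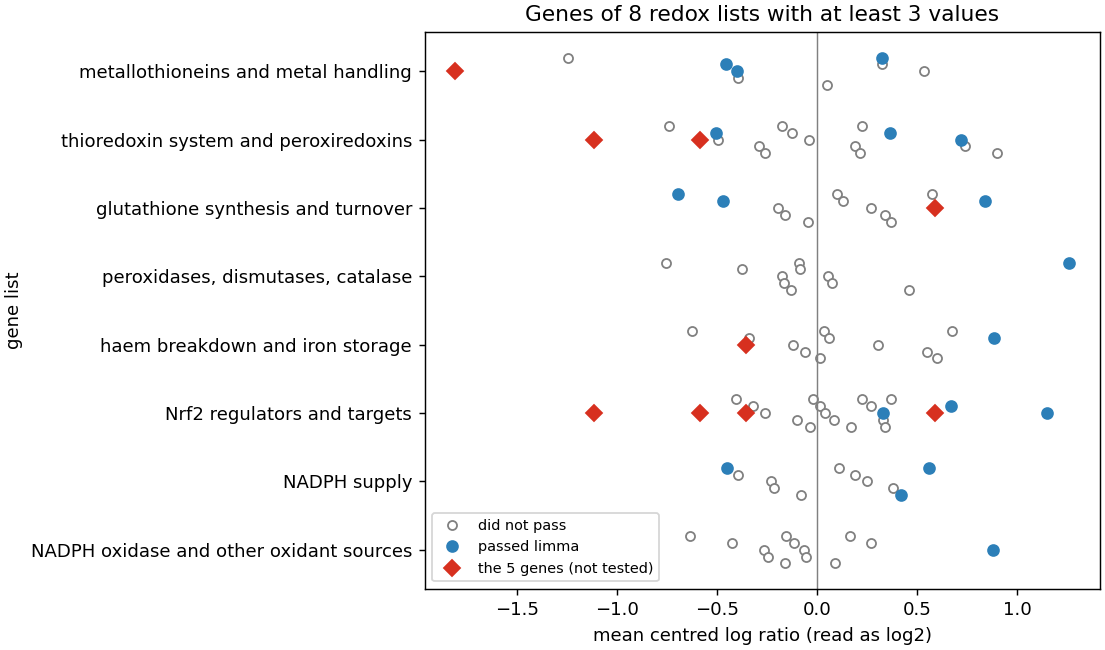
Mean centred log ratio (read as log2, x axis) of each gene with at least 3 values in 8 redox lists (rows), with filled circles for genes that passed limma, open circles for those that did not, and red diamonds for the 5 genes described; height within a row has no meaning. Genes lie on both sides of 0 in each list, and 12 genes that passed lie above 0 and 6 below.

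Among metallothionein and metal genes other than Mt2, 1 of 8 tested passed above 0 and 2 below, with a list median of -0.17. Atox1, a copper chaperone, had -0.14, -0.57, -0.46 and -0.44 in mice 1 to 4 (limma adjusted p = 0.0424), below 0 in each. Slc39a1, a zinc importer, had a mean of -0.46 ± 0.20 (SD, n = 4; limma adjusted p = 0.0354). Slc30a5, a zinc transporter into the secretory pathway, had a mean of 0.32 ± 0.05 (SD, n = 4; limma adjusted p = 0.0309), but its 2 spots differed, with means of 0.54 and 0.11. Mtf1 had values in 2 mice, on both sides of 0, and Mt1 was not named on the array.

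In the thioredoxin list, 2 of 15 other genes passed above 0 and 1 below, with a median of -0.04. Thioredoxin itself, Txn1, had -0.52, 0.07, -0.43 and -0.15 in mice 1 to 4 and did not pass (limma adjusted p = 0.18). Like Txnrd1, it was lowest in mice 1 and 3. Txnrd1 lay below Txn1 in 4 of 4 mice, by 0.33 on average, and below the mitochondrial reductase Txnrd2 in 4 of 4. Txnrd2 had a mean of -0.18 ± 0.29 (SD, n = 4, limma adjusted p = 0.362), and its 2 spots had means of -0.27 and 0.24. The first spot lay below 0 in each mouse, and the second had values in mice 1 and 2 only, both above 0. The genes that passed were Txndc12, a thioredoxin-like protein of the endoplasmic reticulum, at 0.72 ± 0.15 (SD, n = 4; limma adjusted p = 0.00995), Txnl4a at 0.36 ± 0.11 (SD, n = 4; limma adjusted p = 0.0319) and Glrx5 at -0.51 ± 0.25 (SD, n = 4; limma adjusted p = 0.0376). Txnl4a is known as a spliceosome component and Glrx5 for iron-sulfur cluster assembly, so neither acts mainly on peroxide.

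Of the other peroxiredoxins, only Prdx2 and Prdx4 had values. Prdx3 had none, and Prdx5 and Prdx6 were not named on the array. Prdx2 came nearer to Prdx1 than Prdx4 did. Prdx2 had -0.32, -0.59, -0.86 and -0.22 in mice 1 to 4, below 0 in each and lowest in mouse 3, as Prdx1 was. Its mean of -0.50 ± 0.29 (SD, n = 4) had a limma adjusted p of 0.0500234, just above the threshold of 0.05, so Prdx2 did not pass. That adjusted p was 0.0325 with arrays scaled to equal spread and 0.0445 with a value required on all 4 arrays, but 0.116 with the random block, 0.088 with trend and robust options, and 0.0774 to 0.117 when 1 mouse was left out. Prdx1 was below Prdx2 in 4 of 4 mice, by 0.24 to 0.87. Prdx4, the peroxiredoxin of the endoplasmic reticulum, was above 0 in each mouse (mean 0.21 ± 0.13, SD, n = 4; limma adjusted p = 0.12), but its 2 spots had means of 0.63 and -0.06. Txnip, an inhibitor of thioredoxin, had 1.03, 1.09 and 0.10 in mice 1, 2 and 4 (limma adjusted p = 0.0965).

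In the glutathione list, 1 of 12 other genes passed above 0 and 2 below, with a median of 0.12. Gclc, the catalytic partner of Gclm, had 0.65, 0.04, 0.53 and 0.26 in mice 1 to 4. It was above 0 in each mouse but did not pass (mean 0.37 ± 0.27, SD, n = 4; limma adjusted p = 0.0909). Both subunits were highest in mouse 1 and lowest in mouse 2 among the mice with both, and Gclm lay above Gclc in 3 of 3, by 0.07 to 0.41. Gsr, glutathione reductase, had 0.63, 0.73, -0.08 and 0.08 (limma adjusted p = 0.193), high in mice 1 and 2 and near 0 in the others. The genes that passed act in glutathione breakdown: the dipeptidase Dpep1 at 0.84 ± 0.30 (SD, n = 4; limma adjusted p = 0.0168), the cyclotransferase Chac1 at -0.70 ± 0.25 (SD, n = 4; limma adjusted p = 0.0188) and the aminopeptidase Anpep at -0.47 ± 0.24 (SD, n = 4; limma adjusted p = 0.0434). The cystine carrier gene Slc7a11 had no value, and glutathione synthetase, Gss, had 0.05 and 0.12 in mice 1 and 2.

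**Figure D4:**
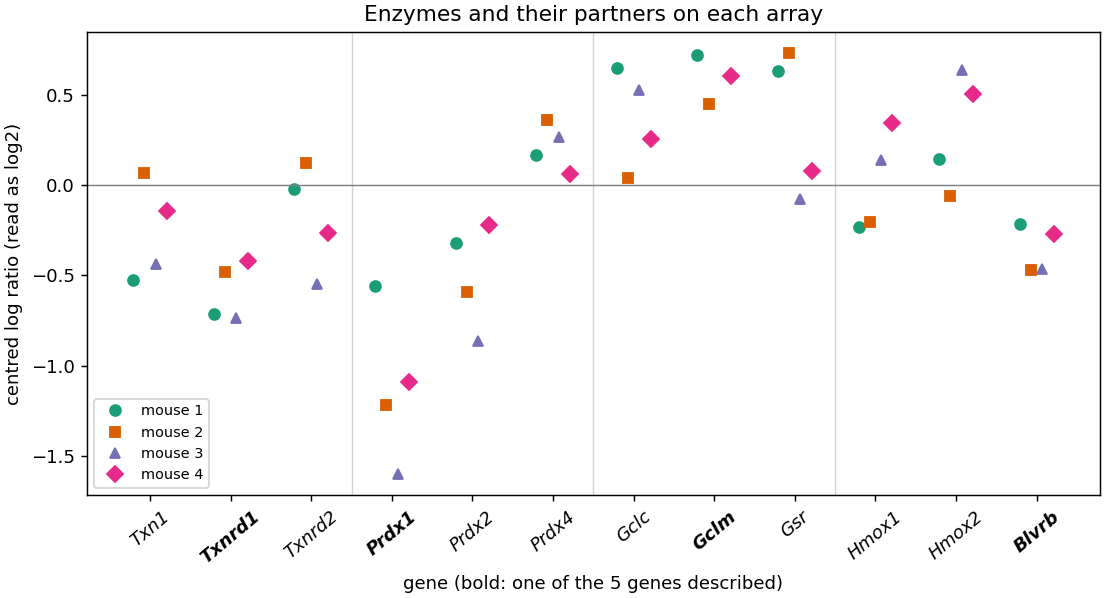
Centred log ratio (read as log2) on each array of the thioredoxin genes, peroxiredoxins, glutathione genes and haem genes set beside Txnrd1, Prdx1, Gclm and Blvrb (bold), with symbols for mice 1 to 4. Prdx1 and Prdx2 lie below 0 in each mouse, and Gclc and Gclm above it in each mouse with a value (Gclm has none in mouse 3). Txn1, Txnrd2 (averaged over 2 spots), Gsr, Hmox1 and Hmox2 cross 0.

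In the haem and iron list, 1 of 12 genes other than Blvrb passed above 0 and 0 below by limma, with 2 and 1 at an unadjusted p under 0.05 and a median of 0.05. The gene that passed was Alas1, the rate-limiting enzyme of haem synthesis and not of breakdown, with 0.92, 0.88, 1.13 and 0.61 in mice 1 to 4 (mean 0.89 ± 0.21, SD, n = 4; limma adjusted p = 0.0096). Haem oxygenase 1, Hmox1, which makes biliverdin, had -0.23, -0.21, 0.14 and 0.34 and did not pass (limma adjusted p = 0.955). Hmox2, the constitutive enzyme, had a mean of 0.31 ± 0.32 (SD, n = 4; limma adjusted p = 0.169). Blvrb lay below Hmox2 in 4 of 4 mice and below Hmox1 in 3 of 4. The other biliverdin reductase gene, Blvra, was not named on the array. The ferritin light chain gene Ftl1 had 0.21, -0.07 and 1.89 in mice 1 to 3 (limma adjusted p = 0.316).

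Prdx1, Txnrd1, Blvrb and Gclm are also on the list of Nrf2 regulators and classical targets, and so lie on both sides of 0 within it. Of the 18 other genes tested, 3 passed above 0 and 0 below by limma, with 6 and 0 at an unadjusted p under 0.05. Their median was 0.13, but 0.0653 without mouse 3 and 0.0624 with a value required on all 4 arrays. The 3 were Cul3 and Rbx1, subunits of the ubiquitin ligase that degrades Nrf2, and Nfe2l1, a relative of Nrf2. Cul3 had 1.37, 1.34, 1.47 and 0.42 in mice 1 to 4 (limma adjusted p = 0.0213), Rbx1 a mean of 0.67 ± 0.28 (SD, n = 4; limma adjusted p = 0.025) and Nfe2l1 a mean of 0.33 ± 0.08 (SD, n = 4; limma adjusted p = 0.0328). Nfe2l2 itself had 0.43, -0.05, -0.07 and -0.15 (limma adjusted p = 0.834), and its partner Keap1 a mean of -0.04 ± 0.27 (SD, n = 4; limma adjusted p = 0.853). Nqo1, a quinone reductase and textbook Nrf2 target, had a mean of -0.10 ± 0.15 (SD, n = 4; limma adjusted p = 0.423). Sulfiredoxin, Srxn1, which repairs peroxiredoxins, had -0.88 in mouse 1 and 0.05 in mouse 2 and was not tested.

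Enzymes that remove superoxide and peroxide by other routes lay on both sides of 0. Of 11 genes in that list, 1 passed above 0 and 0 below by limma, with 2 and 2 at an unadjusted p under 0.05. It was Selenop, a plasma selenium carrier, at 1.26 ± 0.68 (SD, n = 4; limma adjusted p = 0.0337). Sod1, the cytosolic superoxide dismutase, had -0.27, -0.07, -1.57 and -1.13 in mice 1 to 4 (limma adjusted p = 0.115), near 0 in mice 1 and 2 and low in mice 3 and 4. Mitochondrial Sod2 ran the other way, with -0.67, -1.26, 0.28 and 0.14 (limma adjusted p = 0.378). The glutathione peroxidase Gpx4 averaged -0.18 ± 0.11 (SD, n = 4; limma adjusted p = 0.154), and the plasma peroxidase Gpx3 had 0.28, 0.39 and -0.51 in mice 1, 2 and 4 (limma adjusted p = 0.874). Catalase, Cat, had values in 2 mice only, 0.65 in mouse 2 and 0.52 in mouse 3.

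NADPH is the electron source for Txnrd1 and Gsr, and not every gene on the list for its supply makes NADPH itself. The list median was 0.11, but -0.0675 without mouse 3 and -0.0372 without mouse 4. Of the 11 genes tested, 2 passed above 0 and 1 below. The genes were Taldo1, of the pentose phosphate pathway, at 0.56 ± 0.29 (SD, n = 4; limma adjusted p = 0.0395), the NAD kinase gene Nadk at 0.42 ± 0.18 (SD, n = 4; limma adjusted p = 0.0389) and the folate enzyme gene Aldh1l1 at -0.45 ± 0.15 (SD, n = 4; limma adjusted p = 0.0257). Of 13 genes for oxidant sources, 1 passed above 0 and 0 below by limma, with 1 and 2 at an unadjusted p under 0.05. Nox4, an NADPH oxidase that releases hydrogen peroxide, had 0.88, 1.07, 0.71 and 0.86 in mice 1 to 4 (limma adjusted p = 0.00707), with little spread between mice.

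Markers of other tissues differed on the same arrays. Of 16 striated muscle genes tested, 7 passed limma below 0 and 0 above (10 and 0 at an unadjusted p under 0.05), with medians of -2.68, -0.73, -2.20 and -1.52 in mice 1 to 4. Of 7 fat cell genes, 4 passed below 0 and 0 above by limma (5 and 0 unadjusted), with medians of -1.07, -0.12, -1.497 and -1.32. The muscle list was not uniform: in mouse 2, its tested genes ran from -5.50 for Tnnc2, of fast skeletal muscle, to 0.97 for Myh6, of heart muscle, both named after their values were seen. For Blvrb, an abundant enzyme of red cells, 7 of 18 red cell markers could be tested. Of these 7, 1 passed above 0 and 0 below by limma (2 and 0 unadjusted). It was Alas2, the red cell enzyme of haem synthesis, above 0 in each mouse (0.53 ± 0.16, SD, n = 4, limma adjusted p = 0.0187). Alas2 was named outside the rule for named genes. Of the 7 means, 5 lay above 0 and 2 below, the list median was 0.03, and no haemoglobin gene was named. Neutrophil genes had 2 of 5 below 0 and 0 above by limma (3 and 0 unadjusted), and macrophage genes 2 of 9 above and 0 below (2 and 2 unadjusted). Means of lung cell markers lay mostly above 0, with 9 of 11 endothelial, 1 of 9 type II cell and 2 of 11 club cell genes past limma above 0, and 0, 0 and 1 below (0, 0 and 2 unadjusted). In mice 1 to 4 the medians were 1.01, 0.85, 0.83 and 0.80 for endothelial genes and 0.09, 0.14, 0.46 and 0.14 for type II cell genes. Club cell medians were above 0 in mice 1 and 2 (0.24 and 0.24) and below 0 in mice 3 and 4 (-0.09 and -0.23). Of 9 heat shock genes, 7 passed above 0 and 0 below by limma (8 and 0 unadjusted). The part of these cell types in the values of the 5 genes was not tested.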

How the data were processed

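The authors deposited 1 log ratio per spot and array, read here as log2 from the values. The sources used here do not give the scanner, dyes, background correction, normalization, log base or direction of the ratio. The natural logarithm could not be told apart from log2; with it, the fold differences given would be larger. The table held 0 further columns of values. Spots were named through the platform's annotation, which lists 14723 of 17280 spots, 14722 with 1 symbol. Each array was centred on its median and spots of 1 symbol were averaged.

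Genes with at least 3 values were tested against 0 with limma 3.58.1 (R 4.3.3), using lmFit and eBayes and 2-sided p-values adjusted by Benjamini-Hochberg; the method was tested on simulated data. The pool counts as 1 control sample, so p-values cover only the spread between 4 treated mice and leave out that between control mice. The number of arrays limits the precision.

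The members and lists were chosen with earlier results of these data known. Named genes were the 5 members, up to 4 genes per redox list with the smallest p among those past the test with 1 sign, and 32 genes whatever their value. Of these 32, 26 were named on the array, 17 were tested, 0 passed limma and 6 had an unadjusted p under 0.05, against 2664 of all 8384 genes. Among those not described above, Gpx1 and Bach1 had no value and Sod3 had 0.007 in mouse 2 only. Fth1 and G6pdx were not named on the array. Protein features that had been planned were not analysed here. Alternatives were no centring, scaling, the median of spots, other minimum numbers of values, a random block, limma's trend and robust options and leaving out each mouse. Promoters came from RefSeq (GRCm38.p6).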

Additional observations from a re-analysis of the deposited data

Results flagged for a closer look

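Genes with 4 values were examined for 1 mouse far from the other 3. These 38 genes are the members, the genes named by rule, Mt4, Alas2 and Myh6, and 4 of them had such a gap. The gap is one that chance gives in about 1 of 20 groups of 4 values. That share does not apply to the count here, because some of the genes, Mt4 and Myh6 among them, were picked by their values. Cul3 was 0.42 in mouse 4 and at least 1.34 in the others. Nadk was 0.69 in mouse 3 and at most 0.35 in the others. Nfe2l2 was 0.43 in mouse 1 and at most -0.05 in the others. Mt4, a metallothionein gene known from squamous epithelium and named after its values were seen, was -4.70 in mouse 2 and between -0.10 and -0.09 in the others. None of Prdx1, Txnrd1 and Blvrb was among them, and Mt2 and Gclm, with 3 values, were not examined.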

How the results depend on the processing

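The 5 members kept their side of 0 with no centring, with scaling, with the median of spots and without each mouse. These settings could not change it, so nothing is read from that. Each member lay on 1 side of 0 on every array with a value, and the array medians were only -0.009 to 0.029. None of the members' means moved by more than 1 SD there, a shift that leaving out 1 of 3 or 4 values cannot give. The other settings change only which genes are tested or how, not these means; Mt2 and Gclm, with 3 values, drop out where all 4 arrays are required. Leaving out 1 mouse gave means from -2.19 to -1.28 for Mt2, -1.30 to -0.95 for Prdx1, -0.64 to -0.54 for Txnrd1, -0.40 to -0.32 for Blvrb and 0.53 to 0.66 for Gclm. Each has 1 spot, so no choice of spots could change them.

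The counts from limma depended on the fit. With mouse pairs 1 and 2, and 3 and 4, as a random block (estimated correlation 0.304), 402 genes passed in place of 1048, and of the redox list genes 6 passed in place of 18, 5 above 0 and 1 below. With trend and robust estimation, 110 genes passed and 2 list genes, 2 above 0 and 0 below, with 25 and 16 at an unadjusted p under 0.05. Without 1 mouse, 277 to 537 genes passed and 4 to 8 list genes, 3 to 6 above 0 and 0 to 2 below; the 0 was without mouse 3, with 12 below 0 at an unadjusted p under 0.05. Such fits test fewer genes and arrays. Txndc12, Alas1 and Nox4 passed whichever mouse was left out. The other 15 were lost in 1 to 4 of the 4 fits. Centring, scaling, the median of spots and the minimum number of values kept all 18.

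List medians moved by more than the SD between mice in some settings. With a value required on all 4 arrays, that of the metal genes was -0.40 and that of the thioredoxin genes -0.15. With 2 values enough, the metal genes had -0.0335 and the peroxidase and dismutase genes -0.0145. Without 1 mouse the range was -0.38 to -0.10 for metal genes, -0.16 to -0.0427 for thioredoxin genes, 0.0508 to 0.13 for glutathione genes and -0.16 to -0.0485 for peroxidase and dismutase genes. The NADPH supply median crossed 0 without mouse 3 (-0.0675) or mouse 4 (-0.0372). The range was 0.0653 to 0.14 for the Nrf2 list, 0.0493 to 0.0735 for haem and iron genes and -0.13 to -0.0738 for oxidant sources. The cause was not tested. No paired analysis was possible because there is 1 group of mice and 1 pool.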
